A study of Mus musculus with 21 samples.

Results

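The lysosome membrane, hydrolase and acidification genes described here are 38 genes of the lysosome in microglia. They were picked by name, without the cathepsins, and each of the 38 symbols was found among the 55487 genes of the deposited table through its Ensembl identifier. They comprise 6 membrane proteins, 13 enzymes that take apart glycans, 8 enzymes and cofactors of lipid and lipofuscin turnover, 3 transcription factors of the MiT/TFE family, and 8 subunits or accessory proteins of the vacuolar proton pump (V-ATPase). Of the 38 genes, 37 passed the filter on low counts and were tested.

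Microglia, the resident macrophages of the brain, were sorted from the striatum of male mice aged 8 to 10 weeks as live cells with CD11b, low CD45 and P2RY12 on their surface, and their RNA was sequenced in bulk. The mice were offspring of dams with maternal immune activation (MIA) or of control dams. They received an intraperitoneal injection of lipopolysaccharide (LPS), a bacterial cell wall component, at 4500 endotoxin units per gram, or of saline, and microglia were taken 18 hours later. The groups compared here were control offspring after LPS (5 libraries), control offspring after saline (6), MIA offspring after LPS (3) and MIA offspring after saline (5), where LPS was the treatment set against saline and MIA the maternal group set against control. The agent given to the dams, the strain and the litters are not stated in the labels used here, so the p-values measure the spread between these libraries, which may include littermates. A further MIA LPS library, replicate 4, was the only library of batch 2, and a further MIA saline library, replicate 6, was titled as excluded by the submitters. Neither enters the group values or comparisons below.

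The 19 libraries compared held 9845771 to 18990003 estimated counts each, of which 43.0 to 53.8% fell on a single ribosomal RNA-like gene, CT010467.1. In a principal component analysis, the first component held 56.4% of the variance and separated LPS from saline libraries. MIA LPS replicate 2 stood apart on the second component, which held 6.86%. Of the sort markers, Itgam (CD11b) and Ptprc (CD45) did not pass the test between LPS and saline, with log2 fold changes of -0.01 and -0.24 in control offspring. P2ry12 transcripts fell under LPS, with 188 ± 17.3 CPM in control LPS libraries and 1974 ± 198 CPM in control saline libraries (SD, n = 5 and 6; CPM, counts per 1000000 counts after TMM scaling). The summed level of 7 monocyte markers was 38.8 to 79.9 CPM in control LPS libraries and 3.80 to 6.41 CPM in control saline libraries, and in MIA offspring it was 36.1 to 61.0 CPM after LPS and 2.80 to 5.94 CPM after saline. Of these 7 markers, 6 rose and 1, Ccr2, fell in each maternal group. Of 6 tested neutrophil markers, 5 rose and 1, Csf3r, fell in each maternal group. The summed level of the 8 listed was 93.4 to 164 CPM in control LPS libraries and 157 to 226 CPM in control saline libraries. Most of the saline sum was Csf3r, at 157 to 221 CPM there and 47.6 to 92.2 CPM in control LPS libraries. S100a8 was at 14.3 to 27.8 CPM in control LPS and 0 to 4.54 CPM in control saline libraries. S100a9 was at 21.2 to 45.6 and 0 to 7.89 CPM in the same groups. In control saline libraries Retnlg, Mmp8 and Elane of the neutrophil list had no count. The summed level of 8 microglia markers was 4666 to 6248 CPM in control LPS libraries and 10160.0 to 13938 CPM in control saline libraries. Of these 8, 5 fell in each maternal group. Of 6 tested markers of border-associated macrophages, 1 rose and 1 fell in control offspring, and the lymphocyte markers Cd3e and Nkg7 had no count in any of the 4 groups. In bulk RNA, fewer cells of a type and less RNA per cell cannot be told apart, and the part of these markers in the results on lysosomal genes was not tested.

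Lysosomes are acidic compartments in which proteins, lipids and glycans taken up or discarded by the cell are broken down. The V-ATPase pumps protons across their membrane, a dense coat of membrane glycoproteins such as LAMP1 and LAMP2 lines that membrane, and soluble hydrolases work in the acid lumen. TFEB, TFE3 and MITF are transcription factors that bind E-box-like motifs in the promoters of many lysosomal genes and are held in the cytoplasm when mTORC1 is active at the lysosome. Microglia use this machinery to digest debris and phagocytosed material, and inherited loss of several of the hydrolases causes storage disease of the brain.

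In control offspring after saline, the genes covered a wide range of levels per length of exon. Psap, the precursor of the saposins that help enzymes reach membrane lipids, was highest at 234 ± 49.6 CPM per kb of merged exons (SD, n = 6). It was followed by the macrophage membrane glycoprotein gene Cd68 at 117 ± 28.9 CPM per kb. Hexa, Grn and Lamp1 came next at 103 ± 32.5, 96.5 ± 11.5 and 91.2 ± 9.47 CPM per kb. These values from Cd68 to Lamp1 lay within an SD of their neighbours in the order, whereas Psap lay further from Cd68. At the low end, Tfeb was at 1.69 ± 0.302, Sgsh at 1.53 ± 0.379, Galns at 1.52 ± 0.367 and Gla at 0.558 ± 0.165 CPM per kb. Tfeb, Sgsh and Galns did not differ beyond their spread, and Gla lay below them. The order depends on the length used: per kb of the longest transcript, Lamp2 moved to rank 3 of 38, against rank 9 per kb of merged exons. Atp6v0d2, the V0 d subunit isoform known from osteoclasts, had no count in any of the 21 libraries, where 3 counts over a group would equal 0.0416 CPM in control LPS, 0.0333 CPM in control saline, 0.0735 CPM in MIA LPS and 0.0440 CPM in MIA saline libraries.

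**Figure D1:**
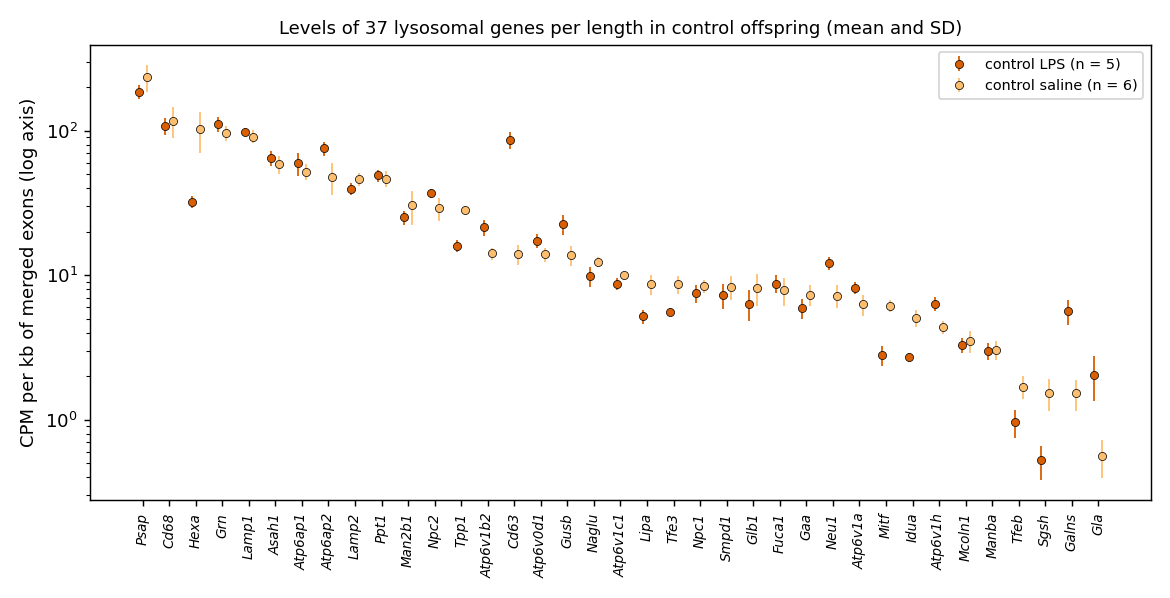
Level per length of the 37 lysosomal genes with counts in control offspring, as CPM per kb of merged exons on a log axis, ordered by the saline mean. Points are group means and bars are SDs (LPS, n = 5, and saline, n = 6); Cd63, Galns and Gla stand higher after LPS, and Hexa, Sgsh and Mitf lower.

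After LPS, individual lysosomal genes moved in both directions, while the summed level of all 38 overlapped between LPS and saline libraries. In control offspring, 10 of the 37 tested genes rose and 8 fell (edgeR's quasi-likelihood test, adjusted p under 0.05), which is 48.6% of them, beside 44.6% of the 14741 genes tested in all. With DESeq2's or edgeR's RLE scaling, or upper quartile scaling, 9 rose and 13 fell in control offspring. In MIA offspring 10 rose and 9 fell, which is 51.4%, beside 39.1% of all genes tested. The genes that rose were Cd63, Gla, Galns, Gusb, Neu1, Npc2, Atp6v1a, Atp6v1b2, Atp6v1h and Atp6ap2 in each maternal group. Hexa, Sgsh, Idua, Lipa, Tpp1, Tfeb, Tfe3 and Mitf fell in each, and Naglu passed the test in MIA offspring alone. The median log2 fold change over the 37 was -0.09 in control offspring and -0.08 in MIA offspring, beside -0.00 and 0.02 over all genes tested. The summed level of the 38 genes was 3958 to 4554 CPM in control LPS libraries and 3526 to 4645 CPM in control saline libraries, so the groups overlapped. In MIA offspring it was 3709 to 4769 CPM after LPS and 3598 to 4408 CPM after saline, with overlap again. Sums by role differed from this total. Membrane proteins summed to 1142 to 1284 CPM in control LPS and 916 to 1081 CPM in control saline libraries. The MiT/TFE factors summed to 70.8 to 80.0 and 111 to 139 CPM there. Neither sum overlapped in either maternal group. The V-ATPase sum overlapped in control but not in MIA offspring (702 to 711 CPM after LPS, 453 to 546 CPM after saline). Sums of the glycan hydrolases and of the lipid genes overlapped in each. The LPS and saline libraries did not overlap for 15 of the 37 genes in control offspring, beside 28.9% of all genes tested, and for 17 in MIA offspring, beside 36.5%. Without MIA LPS replicate 2, the library that stood apart, 13 genes rose and 9 fell in MIA offspring.

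**Figure D2:**
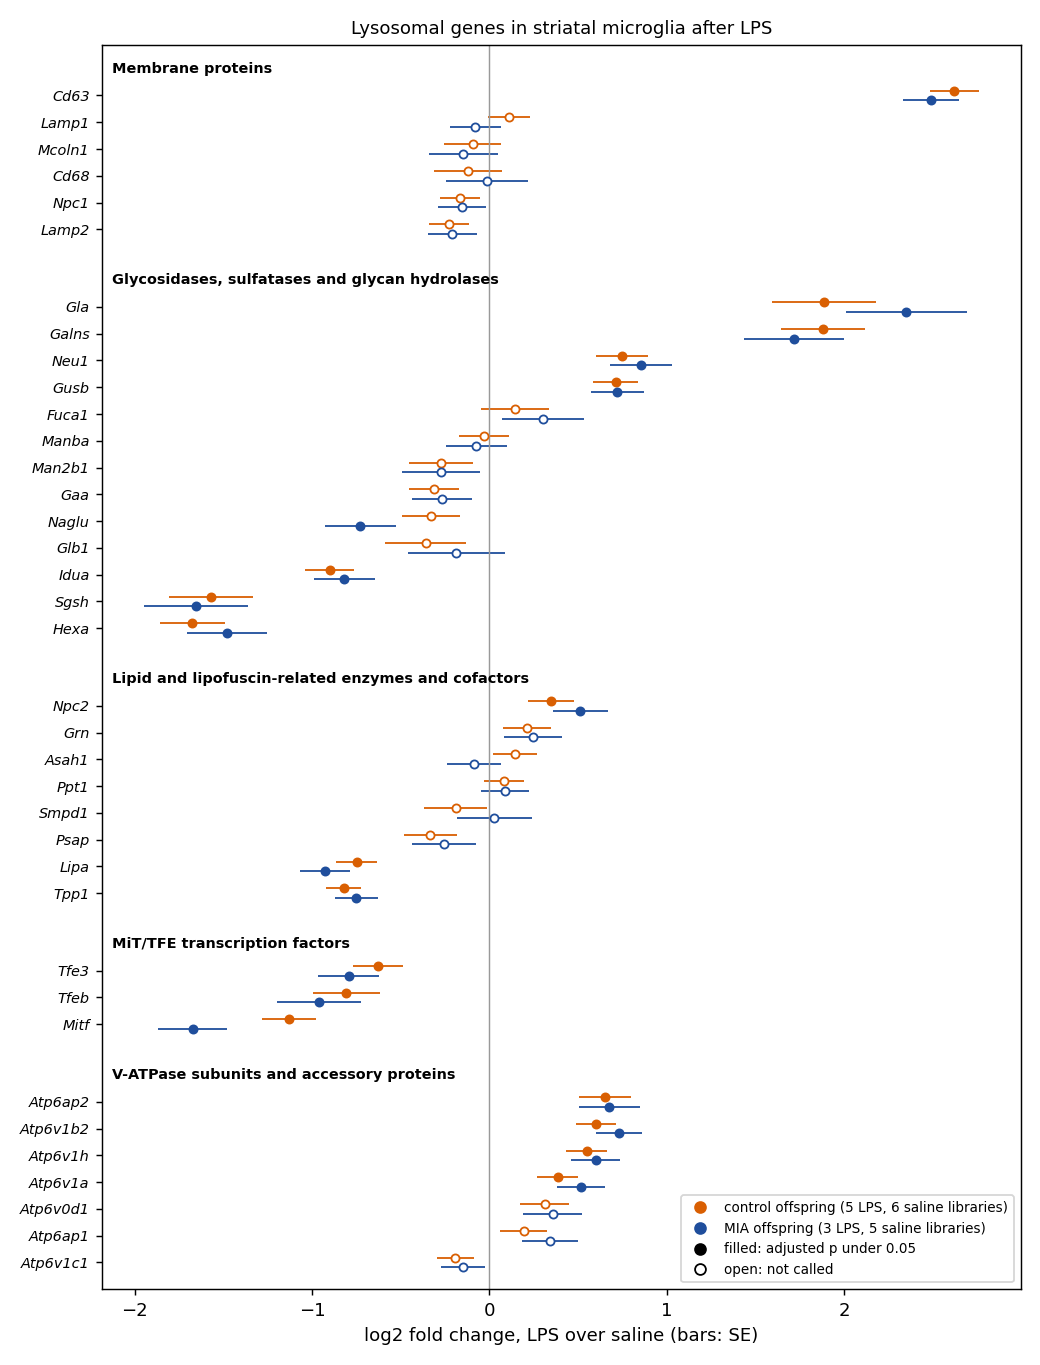
Response of the 37 tested lysosomal genes to LPS, grouped by role, as the log2 fold change of LPS over saline with its SE, in control offspring (orange; 5 LPS and 6 saline libraries) and MIA offspring (blue; 3 and 5). Filled points passed an adjusted p of 0.05; the V-ATPase genes that passed lie right of 0, the 3 MiT/TFE factors left of it, and the glycan hydrolases on both sides.

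Among the 6 membrane proteins, Cd63 rose and the other 5 did not pass the test in either maternal group. Cd63, a tetraspanin of late endosomes, lysosomes and exosomes, was at 313, 344, 254, 309 and 370.5 CPM in the control LPS libraries, against a lowest, median and highest value of 40.5, 53.4 and 62.1 CPM in control saline libraries. In MIA offspring it was at 304, 334 and 292 CPM after LPS and at 64.8, 57.2, 45.0, 63.5 and 45.5 CPM after saline. Every LPS library lay above every saline library of its maternal group, with no overlap. Cd63's log2 fold change was 2.62 ± 0.14 in control offspring and 2.49 ± 0.16 in MIA offspring (± SE; edgeR adjusted p = 6.28e-14 and 4.34e-12), a 6.16-fold and a 5.62-fold difference. The structural glycoproteins Lamp1 and Lamp2, Cd68, the cholesterol exporter Npc1 and the calcium channel Mcoln1 had log2 fold changes between -0.23 and 0.11 in control offspring and between -0.21 and -0.01 in MIA offspring. For Lamp1 the 95% interval of the log2 fold change in control offspring ran from -0.12 to 0.34, and for Cd68 from -0.50 to 0.25. Lamp2 missed the threshold with a log2 fold change of -0.23 and an edgeR adjusted p of 0.107 in control offspring, and passed it, lower, under 5 of 29 alternative settings (log2 fold change -0.32 to -0.18 over the 29).

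Among the glycan hydrolases, 4 of the 13 rose and 3 fell in control offspring, which is 30.8% and 23.1%, beside 23.3% and 21.3% of all genes tested. In MIA offspring 4 rose and 4 fell, 30.8% each, beside 20.8% and 18.3% of all genes tested. Gla, alpha-galactosidase A, which removes terminal galactose from glycolipids and is lost in Fabry disease, was at 9.05, 8.54, 6.13, 6.57 and 3.29 CPM in the control LPS libraries, against 1.02, 1.97 and 2.56 CPM as lowest, median and highest value in control saline libraries. In MIA offspring Gla was at 10.3, 13.5 and 4.56 CPM after LPS and at 2.10, 2.09, 1.35, 1.93 and 1.80 CPM after saline. The groups did not overlap, and the LPS libraries varied more than those of any other called gene in control offspring, with a coefficient of variation of 34.0%. Gla's log2 fold change was 1.89 ± 0.29 in control and 2.35 ± 0.34 in MIA offspring (± SE; edgeR adjusted p = 7.48e-06 and 4.09e-06).

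Galns, the enzyme that removes sulfate from keratan sulfate and chondroitin 6-sulfate, was at 19.6, 12.6, 13.9, 12.5 and 15.8 CPM in the control LPS libraries, against 2.67, 4.08 and 5.65 CPM as lowest, median and highest value in control saline libraries. In MIA offspring it was at 16.7, 5.28 and 13.8 CPM after LPS and at 4.65, 3.70, 2.97, 2.82 and 4.00 CPM after saline. No groups overlapped, but MIA LPS replicate 2 sat just above the saline libraries. Galns had a log2 fold change of 1.88 ± 0.24 in control and 1.72 ± 0.28 in MIA offspring (± SE; edgeR adjusted p = 3.25e-07 and 2.16e-05), and without MIA LPS replicate 2 the value in MIA offspring was 2.07. Gusb, the beta-glucuronidase that acts on several glycosaminoglycans, and Neu1, the lysosomal sialidase, rose by smaller amounts, with log2 fold changes of 0.71 and 0.75 in control and 0.72 and 0.86 in MIA offspring.

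Hexa, which encodes the alpha subunit of beta-hexosaminidase and is lost in Tay-Sachs disease, showed the largest fall of the 37 genes in control offspring. It was at 74.2, 59.6, 65.1, 63.7 and 59.4 CPM in the control LPS libraries, against 139, 189.6 and 320.1 CPM as lowest, median and highest value in control saline libraries. In MIA offspring Hexa was at 85.7, 53.2 and 58.4 CPM after LPS and at 219, 218, 139.9, 162 and 178 CPM after saline. Every LPS library lay below every saline library. The LPS libraries of control offspring were close together, with a coefficient of variation of 9.32%, whereas the saline libraries spread over 31.6%. Hexa had a log2 fold change of -1.68 ± 0.18 in control and -1.48 ± 0.22 in MIA offspring (± SE; edgeR adjusted p = 4.15e-08 and 8.66e-06), a level 3.19-fold and 2.79-fold lower after LPS.

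Enzymes of heparan sulfate breakdown were among those that fell. Sgsh, the heparan N-sulfatase, had a log2 fold change of -1.57 ± 0.24 in control and -1.65 ± 0.29 in MIA offspring, with 2.31 ± 0.608 CPM in control LPS and 6.77 ± 1.67 CPM in control saline libraries (SD, n = 5 and 6). Idua, the alpha-L-iduronidase that acts on heparan and dermatan sulfate, was at -0.90 ± 0.14 and -0.82 ± 0.17. For both genes every LPS library lay below every saline library of its maternal group. Naglu, the alpha-N-acetylglucosaminidase of the same pathway, had a log2 fold change of -0.73 ± 0.20 in MIA offspring (edgeR adjusted p = 0.00513), where the groups overlapped, and of -0.33 ± 0.16 in control offspring (edgeR adjusted p = 0.107). With no batch term, where MIA LPS replicate 4 at 82.6 CPM joins its group, Naglu's value in MIA offspring was -0.05 and did not pass (edgeR adjusted p = 0.919). The difference between the responses above, MIA minus control, was -0.40 ± 0.26 for Naglu and did not pass the test (95% interval -0.90 to 0.10; edgeR adjusted p = 1.00). The remaining glycosidases Gaa, Glb1, Man2b1, Manba and Fuca1 did not pass the test and had log2 fold changes between -0.36 and 0.15 in control and between -0.27 and 0.30 in MIA offspring. Gaa passed, lower, under 8 of 29 alternative settings in control offspring (log2 fold change -0.40 to -0.25 over the 29). In MIA offspring Man2b1 passed, lower, and Fuca1, higher, under 1 setting each, with an MIA LPS library left out. Of the member exon bases, 21.6% in Sgsh, 12.8% in Hexa and 9.31% in Lamp1 also lie in exons of a gene on the opposite strand, and whether reads were counted by strand is not given in the sources used here. Those opposite genes were low: Card14, opposite Sgsh, averaged 0 CPM in control LPS and 0.0368 CPM in control saline libraries, and Tmem202, opposite Hexa, averaged 0.136 and 0.202 CPM. Grtp1, opposite Lamp1, averaged 4.23 CPM in control LPS and 4.81 CPM in control saline libraries. Smaller overlaps, each of at most 5.49% of exon bases, involve Npc1, Glb1, Idua, Grn, Ppt1 and Atp6v1h, and not all neighbours were low. Cap1, opposite Ppt1, averaged 104 CPM in control LPS and in control saline libraries. Dgkq and Slc26a1, opposite Idua, averaged 15.7 and 2.52 CPM in control LPS and 12.2 and 4.72 CPM in control saline libraries. Tmppe, on the same strand as Glb1, averaged 12.7 and 6.57 CPM in these groups, and Rmc1, opposite Npc1, 17.3 and 14.1 CPM.

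**Figure D3:**
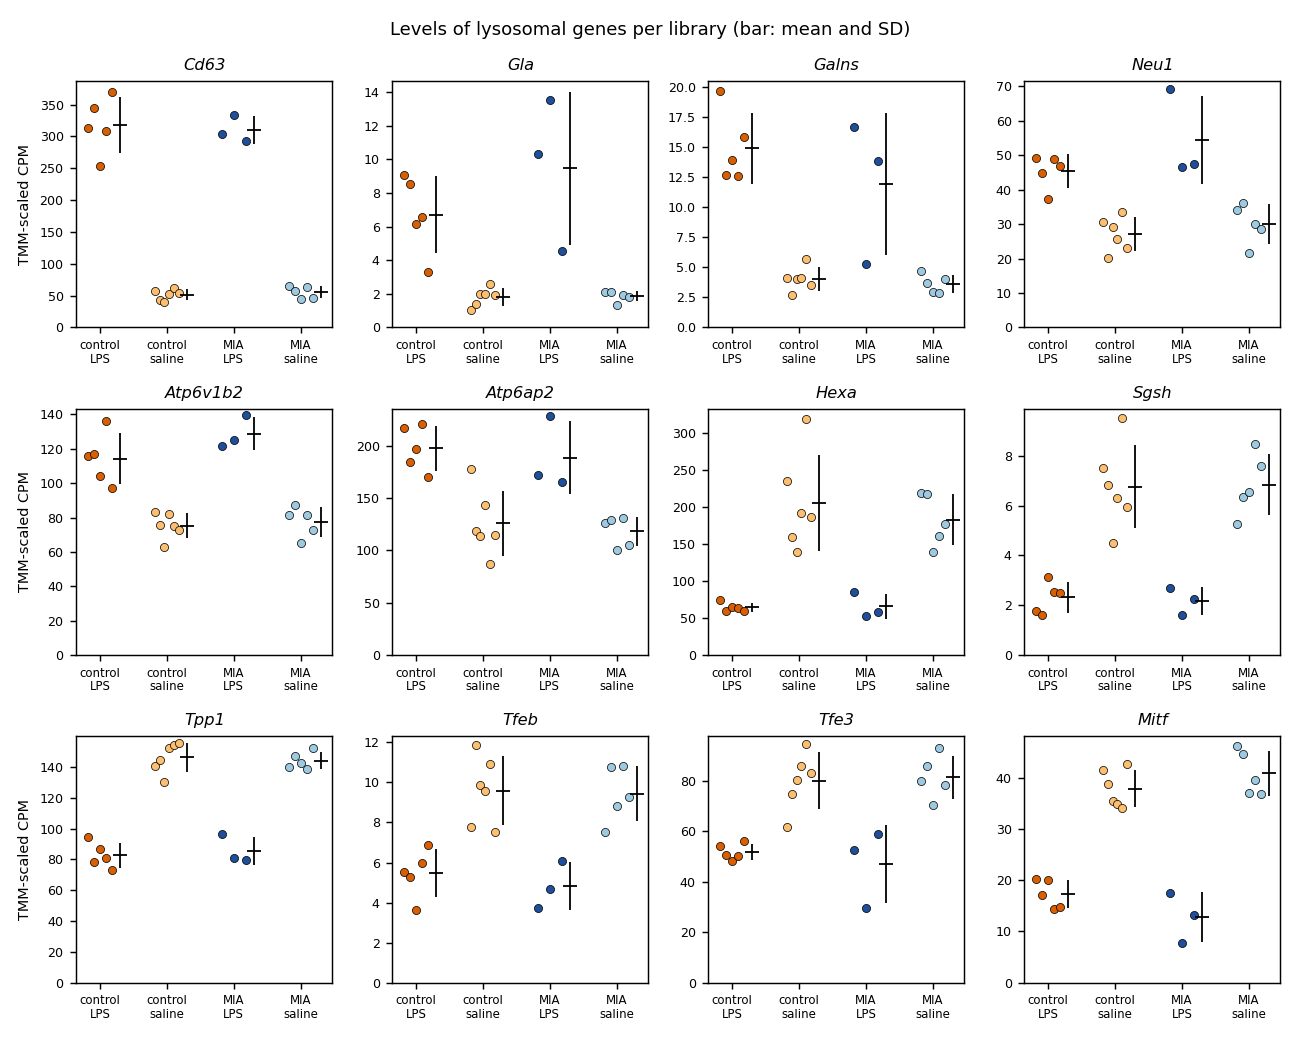
TMM-scaled CPM of 12 lysosomal genes in each of the 19 libraries, with group mean and SD beside the points (control LPS, n = 5; control saline, n = 6; MIA LPS, n = 3; MIA saline, n = 5). Cd63, Gla, Galns, Neu1, Atp6v1b2 and Atp6ap2 have higher means after LPS and Hexa, Sgsh, Tpp1, Tfeb, Tfe3 and Mitf lower means, with overlap of single libraries for Atp6ap2 in control offspring.

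Of the 8 genes of lipid and lipofuscin turnover, Npc2 rose and Lipa and Tpp1 fell in each maternal group. Tpp1, tripeptidyl peptidase 1, a protease lost in a form of neuronal ceroid lipofuscinosis, was at 94.4, 78.3, 86.7, 80.7 and 73.3 CPM in the control LPS libraries, against 130.3, 148 and 155 CPM as lowest, median and highest value in control saline libraries. In MIA offspring Tpp1 was at 96.2, 80.9 and 79.8 CPM after LPS and at 139.8, 147, 143, 139 and 153 CPM after saline. The LPS libraries were all below the saline libraries, and the saline libraries of each maternal group were tight. The log2 fold change of Tpp1 was -0.82 ± 0.10 in control and -0.75 ± 0.12 in MIA offspring (± SE; edgeR adjusted p = 1.9e-07 and 1.86e-05).

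Lipa, the acid lipase that frees cholesterol from its esters, was at 29.4, 35.1, 38.8, 34.0 and 38.4 CPM in the control LPS libraries, against 49.7, 56.4 and 71.3 CPM as lowest, median and highest value in control saline libraries. In MIA offspring Lipa was at 34.6, 30.2 and 31.0 CPM after LPS and at 61.9, 56.0, 59.5, 65.9 and 60.1 CPM after saline. The groups did not overlap. Its log2 fold change was -0.75 ± 0.11 in control and -0.93 ± 0.14 in MIA offspring (± SE; edgeR adjusted p = 6e-06 and 7.84e-06).

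Npc2, the luminal protein that hands cholesterol to NPC1, was at 221, 184, 203, 199 and 197 CPM in the control LPS libraries, against 120.2, 161 and 197 CPM as lowest, median and highest value in control saline libraries. In MIA offspring Npc2 was at 269, 186 and 218 CPM after LPS and at 162, 190.2, 126, 159.6 and 148 CPM after saline. The highest saline library reached into the LPS range in each maternal group. The log2 fold change of Npc2 was 0.35 ± 0.13 in control and 0.51 ± 0.16 in MIA offspring (± SE; edgeR adjusted p = 0.034 and 0.0108). In control offspring the call on Npc2 was lost under 10 of 29 alternative settings, among them DESeq2 (adjusted p = 0.0603) and leaving out control saline replicate 2 (edgeR adjusted p = 0.0936), and adjusted p-values over the 29 settings reached 0.0936. In MIA offspring it was lost without MIA LPS replicate 1 (edgeR adjusted p = 0.104). Its partner at the membrane, Npc1, had log2 fold changes of -0.16 and -0.15 that did not pass. Grn (progranulin), Psap, the ceramidase Asah1, the sphingomyelinase Smpd1 and the thioesterase Ppt1 did not pass either, with log2 fold changes between -0.33 and 0.21 in control and between -0.26 and 0.24 in MIA offspring. Psap passed, lower, under 7 of 29 alternative settings in control and 1 in MIA offspring, and Grn passed, higher, under 2 in MIA offspring.

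The 3 MiT/TFE factors all fell in each maternal group, beside 21.3% of all genes tested that fell in control offspring and 18.3% in MIA offspring. Their LPS and saline libraries did not overlap, beside 28.9% and 36.5% of all genes tested. Mitf was at 20.3, 17.1, 20.04, 14.4 and 14.7 CPM in the control LPS libraries, against 34.0, 37.1 and 42.7 CPM as lowest, median and highest value in control saline libraries. In MIA offspring Mitf was at 17.5, 7.81 and 13.2 CPM after LPS and at 46.2, 44.7, 37.1, 39.6 and 36.8 CPM after saline. MIA LPS replicate 2 was the lowest of all 19 libraries. The log2 fold change of Mitf was -1.13 ± 0.15 in control and -1.67 ± 0.20 in MIA offspring (± SE; edgeR adjusted p = 1.13e-06 and 1.51e-07).

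Tfeb, the best known activator of lysosomal genes, was at 5.53, 5.29, 3.63, 5.96 and 6.89 CPM in the control LPS libraries, against 7.51, 9.73 and 11.9 CPM as lowest, median and highest value in control saline libraries. In MIA offspring Tfeb was at 3.72, 4.70 and 6.07 CPM after LPS and at 7.54, 10.8, 8.84, 10.8 and 9.26 CPM after saline. All LPS libraries lay below all saline libraries. Tfeb's log2 fold change was -0.81 ± 0.19 in control and -0.96 ± 0.24 in MIA offspring (± SE; edgeR adjusted p = 0.00107 and 0.00188).

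Tfe3, which shares many targets with Tfeb, was at 54.1, 50.5, 48.1, 50.4 and 56.3 CPM in the control LPS libraries, against 61.7, 81.9 and 94.5 CPM as lowest, median and highest value in control saline libraries. In MIA offspring Tfe3 was at 52.5, 29.5 and 59.0 CPM after LPS and at 79.9, 85.8, 70.3, 93.1 and 78.5 CPM after saline. The LPS libraries again lay below the saline libraries, with MIA LPS replicate 2 lowest. Tfe3 had a log2 fold change of -0.63 ± 0.14 in control and -0.79 ± 0.17 in MIA offspring (± SE; edgeR adjusted p = 0.000636 and 0.000574). Transcript levels of these factors do not show where the proteins are in the cell. Tfec, the remaining member of the family and not among the 38 genes, rose with a log2 fold change of 2.45 ± 0.55 in control offspring (edgeR adjusted p = 0.00072), at low levels of 1.71 ± 0.327 CPM in LPS and 0.300 ± 0.209 CPM in saline libraries (SD, n = 5 and 6).

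RefSeq promoter windows (GRCm38.p6, 250 bases before to 50 after a start site) were at hand for 31 of the 38 genes. Because the MiT/TFE factors bind E-boxes, the windows were searched on both strands for the E-box CACGTG, which reads the same on either strand, for TCACGTG, which contains it, and for the M-box TCATGTG. The E-box stood in windows of 9 of the 31 genes (29.0%), beside 8.09% of all 27025 genes with such windows (7.15% of all 32851 windows). The same 9 genes held TCACGTG, beside 4.29% of all genes with windows, and 4 of the 31 genes (Gla, Grn, Ppt1 and Tpp1) held TCATGTG, beside 4.31%. Among the genes with a window, CACGTG was in 2 of the 7 that rose in control offspring after LPS (Gla and Atp6v1a), in 1 of the 8 that fell (Sgsh) and in 6 of the 16 that did not pass (Atp6v0d1, Gaa, Glb1, Lamp1, Mcoln1 and Naglu). A match is a description of the letters, not evidence of binding. The windows of 2 genes that rose, 1 that fell and 1 that did not pass are shown because they hold the same motif beside different responses. They are written 5′ to 3′ on the strand of the gene, with CACGTG in capitals. Gla (chrX:134600956-134601255, minus strand) has 2 matches, which start at -227 and -194 from the start site. Atp6v1a (chr16:44139210-44139509, minus strand) has 1 at -131, Sgsh (chr11:119355461-119355760, minus strand) 1 at -29, and Lamp1 (chr8:13158911-13159210, plus strand) 4 between -61 and -15.
Gla: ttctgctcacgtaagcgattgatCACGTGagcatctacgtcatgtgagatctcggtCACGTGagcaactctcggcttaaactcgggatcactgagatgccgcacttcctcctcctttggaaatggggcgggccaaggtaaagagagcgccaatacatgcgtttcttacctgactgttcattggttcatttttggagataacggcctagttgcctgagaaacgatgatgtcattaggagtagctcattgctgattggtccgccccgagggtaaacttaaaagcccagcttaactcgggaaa
Atp6v1a: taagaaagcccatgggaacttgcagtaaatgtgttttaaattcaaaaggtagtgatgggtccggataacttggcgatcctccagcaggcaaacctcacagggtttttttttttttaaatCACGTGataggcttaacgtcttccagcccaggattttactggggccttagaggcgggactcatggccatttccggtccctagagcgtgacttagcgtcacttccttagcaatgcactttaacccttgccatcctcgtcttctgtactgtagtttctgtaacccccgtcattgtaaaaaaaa
Sgsh: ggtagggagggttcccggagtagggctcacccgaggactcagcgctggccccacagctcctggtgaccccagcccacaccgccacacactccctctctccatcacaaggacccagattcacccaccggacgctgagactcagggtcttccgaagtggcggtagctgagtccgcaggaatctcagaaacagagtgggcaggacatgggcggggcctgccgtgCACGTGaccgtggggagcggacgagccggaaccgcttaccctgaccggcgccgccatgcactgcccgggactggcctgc
Lamp1: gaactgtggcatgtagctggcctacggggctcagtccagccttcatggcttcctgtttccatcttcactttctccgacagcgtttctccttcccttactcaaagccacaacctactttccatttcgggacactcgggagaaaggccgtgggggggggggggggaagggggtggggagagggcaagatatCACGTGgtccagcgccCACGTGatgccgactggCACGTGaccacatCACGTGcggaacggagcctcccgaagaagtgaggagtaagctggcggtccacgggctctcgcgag

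Of the 7 tested V-ATPase genes, 4 rose in each maternal group and none fell, beside 23.3% of all genes tested that rose in control offspring and 20.8% in MIA offspring. Atp6ap2, the accessory protein also known as the prorenin receptor, was at 217, 185, 197, 221 and 170.0 CPM in the control LPS libraries, against 87.1, 117 and 178 CPM as lowest, median and highest value in control saline libraries. In MIA offspring Atp6ap2 was at 172, 228 and 166 CPM after LPS and at 126, 129, 100.4, 131 and 105 CPM after saline. In control offspring the highest saline library exceeded the lowest LPS library, and in MIA offspring the groups did not overlap. The log2 fold change of Atp6ap2 was 0.65 ± 0.14 in control and 0.68 ± 0.17 in MIA offspring (± SE; edgeR adjusted p = 0.000605 and 0.00273).

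Atp6v1b2, the B subunit isoform of the cytoplasmic V1 sector found in brain and macrophages, was at 116, 117, 104, 136 and 97.4 CPM in the control LPS libraries, against 62.9, 75.3 and 83.5 CPM as lowest, median and highest value in control saline libraries. In MIA offspring it was at 122, 125 and 139.5 CPM after LPS and at 81.5, 87.4, 65.1, 81.6 and 72.5 CPM after saline. Every LPS library lay above every saline library. Atp6v1b2 had a log2 fold change of 0.60 ± 0.11 in control and 0.73 ± 0.13 in MIA offspring (± SE; edgeR adjusted p = 7.11e-05 and 7.07e-05).

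Atp6v1h, the regulatory H subunit, was at 63.0, 68.8, 56.3, 69.2 and 53.4 CPM in the control LPS libraries, against 34.6, 44.1 and 46.1 CPM as lowest, median and highest value in control saline libraries. In MIA offspring Atp6v1h was at 51.2, 70.8 and 73.9 CPM after LPS and at 43.1, 46.8, 39.6, 46.2 and 39.8 CPM after saline, and no groups overlapped. Its log2 fold change was 0.55 ± 0.11 in control and 0.60 ± 0.14 in MIA offspring (± SE; edgeR adjusted p = 0.000325 and 0.000981). Atp6v1a, the catalytic A subunit, rose by a log2 fold change of 0.39 ± 0.11 in control offspring, where the groups overlapped, and of 0.52 ± 0.14 in MIA offspring, where they did not. Atp6v0d1, the V0 d subunit made in most cells, and Atp6ap1, an accessory glycoprotein, had positive log2 fold changes that did not pass (0.31 and 0.19 in control, 0.36 and 0.34 in MIA offspring). Atp6v1c1, the C subunit, was at -0.19 and -0.15 and did not pass. Of 29 alternative settings in control offspring, Atp6v0d1 passed, higher, under 4 and Atp6v1c1, lower, under 3. In MIA offspring Atp6v0d1 and Atp6ap1 passed, higher, under 2 each.

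The same 38 genes were set between maternal groups to ask whether MIA changed their levels or their response to LPS, the question of the series' title. No lysosomal gene passed the test for MIA against control offspring after saline, after LPS, or for the difference of the LPS responses, and none of the 14741 genes tested did so with edgeR (0% in each). At an unadjusted p under 0.05, the comparison after saline held none of the 37 and 415 of all genes (2.82%). That after LPS held 1, Mitf, and 825 of all genes (5.6%), and the difference held 1, again Mitf, and 491 of all genes (3.33%). DESeq2 called 6 of all genes after saline, none of them a lysosomal gene, and 0 in the other comparisons. The median absolute log2 fold change over the 37 genes was 0.06 for MIA against control after saline, 0.07 after LPS, and 0.11 for the difference of responses, with median SEs of 0.14, 0.17 and 0.22. The largest differences of responses, MIA minus control, were -0.54 ± 0.24 for Mitf (95% interval -1.01 to -0.07; unadjusted p = 0.0325, edgeR adjusted p = 1.00), 0.46 ± 0.45 for Gla (-0.43 to 1.35) and -0.40 ± 0.26 for Naglu. Mitf averaged 12.8 ± 4.85 CPM in MIA LPS and 17.3 ± 2.81 CPM in control LPS libraries, with overlapping libraries. For Cd63 the difference of responses was -0.13 (95% interval -0.54 to 0.27), for Hexa 0.20 (-0.34 to 0.73), and for Atp6v1b2 0.13 (-0.21 to 0.47). These intervals include differences of the size of the smaller LPS responses, so the data do not show that the maternal groups respond alike.

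**Figure D4:**
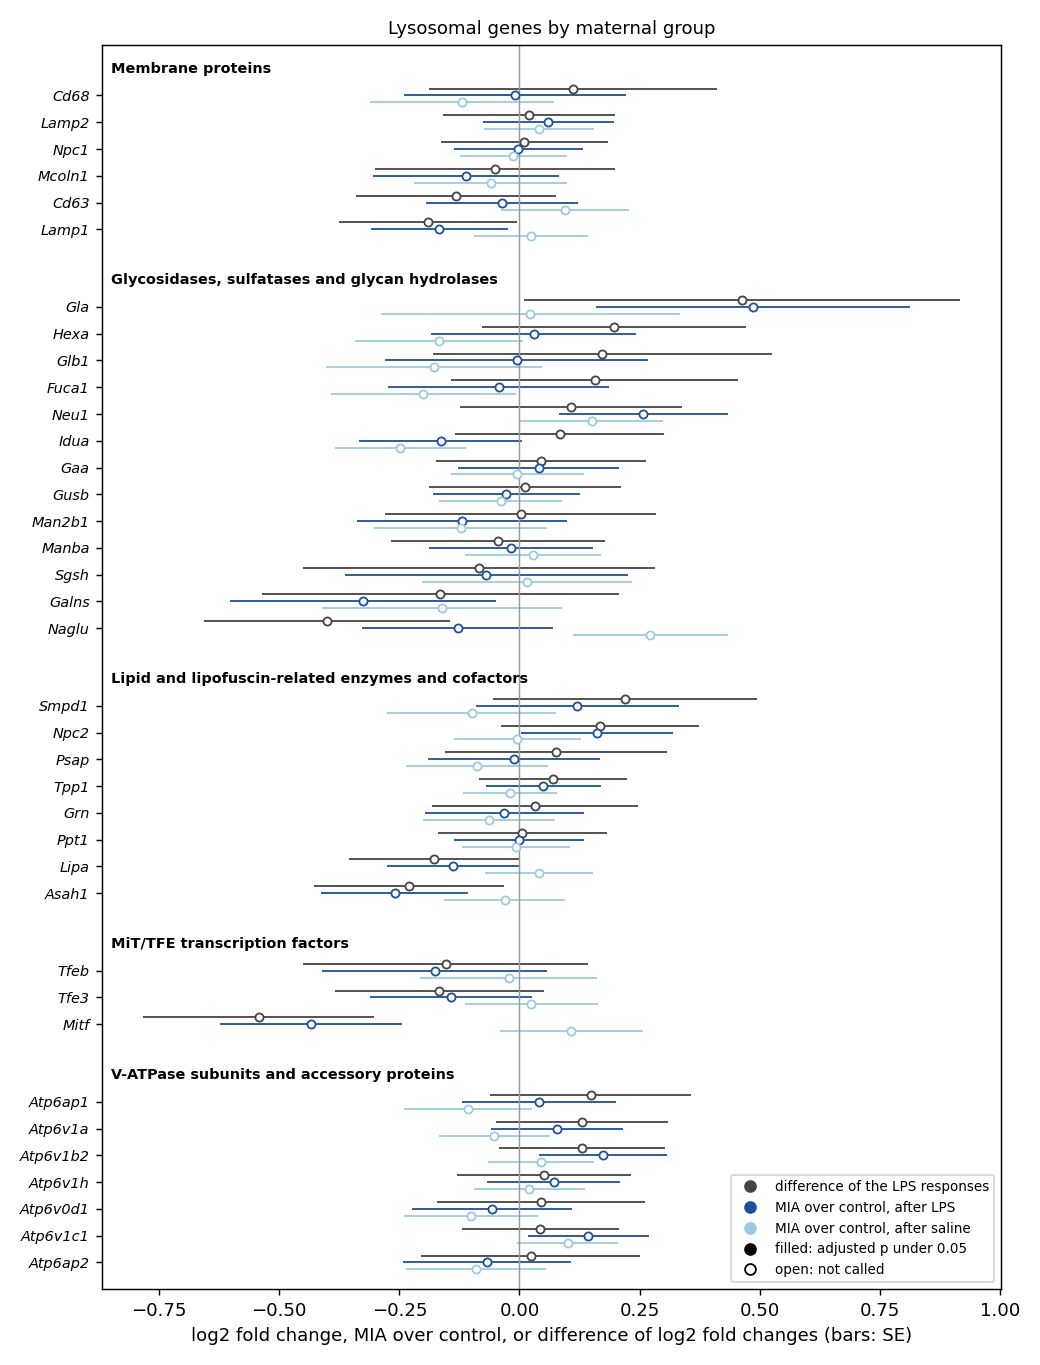
Comparison of maternal groups for the 37 tested lysosomal genes, as the difference of LPS responses, MIA minus control (dark grey), and the log2 fold change of MIA over control after LPS (dark blue) and after saline (light blue), with SEs. All points are open, as none passed an adjusted p of 0.05, and most bars cross 0.

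Libraries of a group also differed among themselves across many of the genes. The median coefficient of variation over the 37 genes was 11.96% in control LPS, 16.0% in control saline, 23.5% in MIA LPS and 12.9% in MIA saline libraries. MIA LPS replicate 2 was the lowest of its 3 libraries for 21 of the 37 genes and MIA LPS replicate 1 the highest for 25. Within MIA LPS libraries, the galactosidase gene Glb1 was at 30.0, 9.91 and 17.4 CPM and Cd68 at 182, 73.1 and 150 CPM. In control saline libraries, replicate 5 was highest for 17 genes and replicate 3 lowest for 15. Hexa, Man2b1 and Psap were all highest in replicate 5 and lowest in replicate 3 of that group, at 320.1 and 139, 348 and 165, and 859.9 and 502 CPM. Oligodendrocyte markers summed to 87.5 CPM in MIA LPS replicate 2, the highest of its group, and their part in that library's values was not tested.

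Lists of other lysosomal genes, none of them among the 38, also moved in both directions. Of 12 tested further V-ATPase subunits, 3 rose and 1 fell in each maternal group, 33.3% called beside 44.6% of all genes tested in control and 39.1% in MIA offspring, with a median log2 fold change of 0.22 in control offspring. Atp6v0e and Atp6v0c, subunits of the membrane sector, were highest among them, with log2 fold changes of 1.09 ± 0.12 and 1.01 ± 0.13 in control offspring (± SE). Atp6v0c, the proteolipid that forms the proton-carrying ring, averaged 346 ± 24.0 CPM in control LPS and 172 ± 28.4 CPM in control saline libraries (SD, n = 5 and 6). Of 27 further hydrolases and cofactors, 8 rose and 10 fell in control offspring and 7 and 9 in MIA offspring, 66.7% and 59.3% called beside the same 44.6% and 39.1%, with a median log2 fold change of -0.12 in control offspring. Arsb, which removes sulfate from dermatan and chondroitin sulfate, and Pla2g15, the lysosomal phospholipase A2, fell with log2 fold changes of -1.74 ± 0.14 and -1.61 ± 0.17, and Hyal1, a hyaluronidase with 0.485 ± 0.294 CPM in LPS and 1.61 ± 1.09 CPM in saline libraries, by -1.68 ± 0.57. Acp5, the tartrate-resistant acid phosphatase, rose with a log2 fold change of 5.33 ± 0.65, at 2.60 ± 0.925 CPM in control LPS and 0.0582 ± 0.0674 CPM in control saline libraries, where the saline level is near 0 and the fold change imprecise. Galc, the galactosylceramidase lost in Krabbe disease, rose by 1.08 ± 0.25.

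Of 24 tested further membrane proteins and transporters, 8 rose and 8 fell in control offspring and 6 and 7 in MIA offspring, 66.7% and 54.2% called beside 44.6% and 39.1% of all genes tested. The paired endolysosomal channel genes Tpcn1 and Tpcn2 moved in opposite directions. Tpcn2 averaged 52.3 ± 5.65 CPM in control LPS and 11.4 ± 2.17 CPM in control saline libraries, and Tpcn1 averaged 9.25 ± 2.11 and 36.5 ± 3.50 CPM in the same groups (SD, n = 5 and 6). Their log2 fold changes were 2.19 ± 0.21 and -1.97 ± 0.16 (± SE; edgeR adjusted p = 5.02e-09 and 1.63e-10). The metal transporter Slc11a2 and the peptide transporter Slc15a3 rose by log2 fold changes of 1.51 ± 0.15 and 1.27 ± 0.13. Of 12 sorting genes, 4 rose and 1 fell in control offspring and 3 rose in MIA offspring, with Igf2r, the large mannose 6-phosphate receptor, rising by 2.36 ± 0.67 at 0.984 CPM in control LPS and 0.178 CPM in control saline libraries. Of 19 tested genes of mTORC1 at the lysosome and of MiT/TFE control, 5 rose and 3 fell in control offspring and 3 rose and 1 fell in MIA offspring. The sorting genes were called at 41.7% in control and 25.0% in MIA offspring, and the mTORC1 and MiT/TFE control genes at 42.1% and 21.1%, none above the 44.6% and 39.1% of all genes tested. No test compared any of these lists with other genes.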

How the data were processed

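Libraries were made from 5 ng of RNA of sorted microglia by a modified Smart-Seq2 method. Per the labels' protocols, amplification took 9 PCR cycles. The deposited table holds the authors' estimated counts per gene, which are not normalized. The submitters' processing notes list RSEM, STAR and DESeq2 but no version or role. Genome build, strand setting and the treatment of reads shared by gene copies: not given in the sources used here. About 6.27% of the values had decimals, and every value was rounded before testing. No molecular identifiers are named, so the floors given cover counting error only.

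Gene symbols, exon lengths and overlaps came from GENCODE M21 (GRCm38), which held 55227 of the 55487 identifiers with the version left off. Genes were tested with edgeR (version 4.0.16 in R 4.3.3; quasi-likelihood, robust, TMM scaling) in a model with 1 mean per group plus batch over 20 libraries, with 15 residual degrees of freedom. Low genes were removed by filterByExpr with a minimum count of 10 and minimum total of 15, leaving 14741. Batch 2 held MIA LPS replicate 4 alone; the batch term absorbed that library, and the contrasts rest on the other 19. Genes were called at an adjusted p (Benjamini-Hochberg over all genes tested, two-sided) under 0.05. An SE is the absolute log2 fold change over the square root of F, and 95% intervals are 1.96 SEs either way. Groups of 5 or fewer are given library by library in the order of their replicate numbers. The procedure was tested on simulated data in which far fewer genes changed than were called here. That test therefore does not check the scaling where many genes change.

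Alternatives were other scalings, other filters, DESeq2 1.42.0, limma-voom (limma 3.58.1) with sample weights, no batch term, a replicate block, the excluded library kept in, and each library left out. In each of 38 pairs of replicates the counts differed beyond sampling noise (chi-square per degree of freedom of 9.58 or more), so none was treated as a copy. The 38 genes, the other gene lists, the marker lists and the tests were chosen with earlier results of these data known. Per-library values are given, in each role group, for up to 3 called genes with the largest change in control offspring after LPS, for the MiT/TFE factors and for any gene near 0 counts. Other lysosomal genes are named where called at an absolute log2 fold change of at least 1 in that comparison, at most 4 per direction and list.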

Additional observations from a re-analysis of the deposited data

Results flagged for a closer look

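In 6 of 111 tested sets of a lysosomal gene in a group, the highest library stood far from the others, where chance gives about 1 in 20. These sets were from control LPS, control saline and MIA saline libraries, and MIA LPS libraries were not tested in this way. Lamp2 was at 504 CPM in MIA saline replicate 2, against 436 to 454 CPM in the other 4 libraries of its group. Naglu was at 38.03 CPM in control saline replicate 6, against 30.5 to 33.3 CPM. Man2b1, a mannosidase, was at 242 CPM in control LPS replicate 1, against 184 to 196 CPM. Control saline replicate 1 was highest for 3 V-ATPase genes. It held Atp6v1a at 50.1 CPM (others 32.1 to 37.8), Atp6v1c1 at 64.1 CPM (others 53.3 to 55.1) and Atp6ap1 at 193 CPM (others 137 to 158).

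Some lysosomal genes in the 2 libraries outside the comparisons lay outside the range of the libraries they were set against. In the batch 2 library, MIA LPS replicate 4, Grn was at 1427 CPM, against 279 to 508 CPM in MIA LPS and control saline libraries. In the same library Psap was at 1026 CPM (others 415 to 859.9), Lamp1 at 420.5 CPM (183 to 287), Gusb at 191 CPM (49.1 to 120.2), Gaa at 184 CPM (24.1 to 41.3) and Npc1 at 165 CPM (74.2 to 108). Naglu was at 82.6 CPM (15.3 to 38.03), Manba at 67.2 CPM (16.3 to 24.7), Atp6v1a at 64.6 CPM (32.1 to 56.1) and Atp6v0d1 at 58.0 CPM (20.6 to 31.4). This library held 11412948 counts, of which 58.1% fell on CT010467.1, beside 43.0 to 53.8% in the 19 libraries compared. It had counts for 12264 genes, beside 17995 to 19559 genes in those libraries. Its summed monocyte markers were at 125 CPM and its summed neutrophil markers at 376 CPM. The part of these features in these values was not tested. In the other direction, 7 genes lay below every MIA LPS and control saline library compared. They were Lamp2 at 329 CPM (others 354 to 496), Ppt1 at 135 CPM (151 to 210.0), Asah1 at 101 CPM (155 to 252), Mitf at 5.16 CPM (7.81 to 42.7), Glb1 at 3.84 CPM (9.91 to 32.6), Tfeb at 3.60 CPM (3.72 to 11.9) and Idua at 3.12 CPM (8.39 to 24.6). Set against the range of MIA saline libraries, MIA LPS replicate 4 lay above for all 10 lysosomal genes that rose in control offspring, and below for 6 of the 8 that fell. The share of all genes outside that range was not taken, so these counts have no background beside them. In the MIA saline library titled excluded, Npc1 was at 111 CPM (control saline libraries 82.0 to 108) and Tpp1 at 160 CPM (130.3 to 155), while Mitf at 30.5 CPM (34.0 to 42.7) and Tfeb at 6.71 CPM (7.51 to 11.9) lay below.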

How the results depend on the processing

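Of the 18 lysosomal genes called after LPS in control offspring, 17 passed under all 29 alternatives, and of the 19 called in MIA offspring 17 did. Exceptions were Npc2 in both, and Naglu in MIA offspring, whose log2 fold change was -0.05 with no batch term, where the batch 2 library joins its group. No called gene changed direction. The count of genes that fell in control offspring was 13, against 8 as reported, with DESeq2, with RLE scaling and with upper quartile scaling, while 9 rose, against 10. The 5 added were Lamp2, Gaa, Naglu, Psap and Atp6v1c1; RLE scaling moved the median of all genes by -0.07 in that comparison, and the cause was not tested further. Leaving out each library in turn gave 9 to 11 rising and 8 to 9 falling genes in control offspring and 9 to 13 and 9 to 11 in MIA offspring. Without MIA LPS replicate 2, Fuca1, Grn and Atp6ap1 were called higher, and without MIA LPS replicate 1, Man2b1 and Psap were called lower, with 11 falling. Between maternal groups, DESeq2 called 3 of all genes higher and 3 lower after saline. Leaving out single libraries gave 0 to 3 genes called higher and 0 to 4 lower for MIA against control after LPS, and 0 to 2 lower for the difference of responses; none was lysosomal.

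The labels do not say whether replicate numbers pair the libraries, and the main tests did not pair them. Same-numbered pairs deviated together more often than other pairs, and what they share was not tested. Deviations of same-numbered libraries from their group means had a median correlation of 0.0563 over 24 pairs (range -0.198 to 0.305; 10 over 0.1), beside -0.00788 over 109 pairs of different numbers (19 over 0.1). With a replicate block, 10 lysosomal genes rose and 8 fell in control offspring, 10 and 9 in MIA offspring, and 0 were called between maternal groups, as without it. Depth limits Atp6v0d2, which had no count, and the folds of genes under 1 CPM, such as Acp5 and Igf2r.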
